A study of Mus musculus with 14 samples.

Results

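The 4 adult globin genes (Hbb-bs, Hbb-bt, Hba-a1 and Hba-a2), the 3 embryonic ones (Hbb-y, Hbb-bh1 and Hba-x) and Alas2 were followed through the chemical conversion of mouse fibroblasts into pigment epithelium. They are 8 of the 55291 gene symbols in the count table, matched by symbol. They were chosen from earlier results of these data, in which Hbb-bs was read at day 32 and in primary tissue, so their levels and fold changes are given as description, with no test. Of the 8 genes, 5 passed the filter on low counts: the 4 adult globins and Alas2, which were high only in the groups that let them pass.

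RNA was sequenced from 14 libraries in 5 groups, all labelled with the genotype C57BL/6J. The starting fibroblasts were the group MEF (n = 3), and reprogramming intermediates were collected after 7 days (D7, n = 3) and after 18 days (D18, n = 3) of the M7 reprogramming medium, which held bFGF, CHIR-99021, LDN193189, A 83-01, Hh-Ag1.5, RG108, BMS-345541 and CKI-7. Converted cells were collected after 32 days (D32, n = 3), following a switch to the M3 differentiation and maturation medium with Y27632, nicotinamide, retinoic acid and activin A. Primary retinal pigment epithelium (P-RPE, n = 2) had no treatment. The labels give all 14 libraries the same tissue, E13.5 embryos, P-RPE included, and give MEF the first medium as treatment. Cells were scraped where induction looked successful, so the treated groups are selected cells. The labels do not say whether replicates came from separate cultures or animals, so SDs and p-values measure only the spread between these libraries, which may be technical.

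Haemoglobin is made of alpha-type and beta-type globin chains around haem, and each kind of chain comes from a cluster of genes placed in the order of their use in development. Primitive red cells, which form in the yolk sac, use Hba-x, Hbb-y and Hbb-bh1 among their globin genes. Definitive red cells, which form later in fetal liver and then bone marrow, use the adult genes Hba-a1, Hba-a2, Hbb-bs and Hbb-bt. Alas2 encodes the red cell form of the enzyme that starts haem synthesis. The pigment epithelium of the eye lies between the rod photoreceptors and the blood vessels of the choroid, so blood is close by in the intact tissue.

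On GRCm38, as annotated by GENCODE vM21, the beta-type genes lie on the minus strand of chromosome 7 within 40.7 kb. In the direction of transcription they are Hbb-y (chr7:103851749-103853216), Hbb-bh1 (chr7:103841637-103843164), Hbb-bs (chr7:103826534-103828096) and Hbb-bt (chr7:103812524-103813996). The alpha-type genes lie on the plus strand of chromosome 11 within 20.9 kb, in the order Hba-x (chr11:32276400-32278116), Hba-a1 (chr11:32283511-32284465) and Hba-a2 (chr11:32296489-32297298). Alas2 is on the plus strand of chromosome X (chrX:150547375-150570638).

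Promoters of 5 of these genes are shown because genes from 3 chromosomes were read in the same libraries: the most abundant adult beta and alpha gene, the embryonic gene of each cluster with any count, and Alas2. Each run holds the 250 bases before the gene's start in RefSeq on GRCm38.p6, read 5′ to 3′ in the direction of transcription, which is not always the outermost start in GENCODE. Capitals mark matches to the GATA-type words AGATAA or, in the other common form, TGATAA, to the box CACCC of Kruppel-like factors and to the box CCAAT, all searched on both strands, and to the TATA forms ending in AA (TATAAA) or, as the other form searched, in AG (TATAAG), both searched only as transcribed. The windows are chr7:103827929-103828178 (minus strand) for Hbb-bs, chr11:32283422-32283671 (plus strand) for Hba-a1, chr7:103853208-103853457 (minus strand) for Hbb-y, chr11:32276350-32276599 (plus strand) for Hba-x and chrX:150547167-150547416 (plus strand) for Alas2.
Hbb-bs: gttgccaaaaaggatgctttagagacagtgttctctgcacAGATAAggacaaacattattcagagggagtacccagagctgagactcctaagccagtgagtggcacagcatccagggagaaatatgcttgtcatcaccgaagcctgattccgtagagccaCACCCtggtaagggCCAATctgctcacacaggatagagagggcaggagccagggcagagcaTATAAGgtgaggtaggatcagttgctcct
Hba-a1: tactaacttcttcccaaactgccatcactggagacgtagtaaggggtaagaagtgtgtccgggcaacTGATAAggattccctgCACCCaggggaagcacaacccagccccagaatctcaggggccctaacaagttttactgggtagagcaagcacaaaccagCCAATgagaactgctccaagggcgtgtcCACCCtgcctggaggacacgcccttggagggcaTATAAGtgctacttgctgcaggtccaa
Hbb-y: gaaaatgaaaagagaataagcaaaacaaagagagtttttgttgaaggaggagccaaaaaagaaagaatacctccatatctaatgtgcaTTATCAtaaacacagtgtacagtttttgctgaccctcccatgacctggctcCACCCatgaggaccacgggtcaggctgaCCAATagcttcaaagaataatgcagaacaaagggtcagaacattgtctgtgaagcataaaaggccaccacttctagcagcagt
Hba-x: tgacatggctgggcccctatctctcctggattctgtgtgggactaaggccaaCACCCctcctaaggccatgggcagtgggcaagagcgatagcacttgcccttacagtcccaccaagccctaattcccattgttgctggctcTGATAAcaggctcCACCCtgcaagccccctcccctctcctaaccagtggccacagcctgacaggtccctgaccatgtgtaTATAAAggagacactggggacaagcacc
Alas2: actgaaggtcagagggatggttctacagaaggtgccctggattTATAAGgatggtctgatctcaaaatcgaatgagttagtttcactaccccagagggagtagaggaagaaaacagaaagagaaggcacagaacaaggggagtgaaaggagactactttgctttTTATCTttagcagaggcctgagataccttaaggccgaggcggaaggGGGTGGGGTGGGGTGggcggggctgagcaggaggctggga

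RefSeq's promoter table had an entry for 7 of the 8 genes. Counting backwards from the start, with -1 as the base before it, the Hbb-bs window held AGATAA at -210, CACCC at -90, CCAAT at -76 and TATAAG at -29. The Hba-a1 window held TGATAA at -183, CACCC at -167 and -60, CCAAT at -88 and TATAAG at -27. The window of Hbb-bt, not shown, held neither GATA-type word, and it had 3 CACCC and 3 CCAAT matches and TATAAA at -28, so the adult windows did not share all kinds of match. The Hba-a2 window is the Hba-a1 window moved by 3 bases. Over their full promoter entries, which also hold 50 bases after the start, 297 of 297 compared bases were identical. In the embryonic Hbb-y window the GATA match was TGATAA at -162, with CACCC at -111 and CCAAT at -83 and neither TATA form. The Hba-x window held TGATAA at -108, CACCC at -198 and -95 and TATAAA at -28, without CCAAT. Alas2 had AGATAA at -86 and CACCC at -40, -35 and -30, its TATAAG lying far upstream at -207. These letters are common: over 32851 mouse promoter windows of 250 bases, 9.99% held AGATAA, 7.94% TGATAA, 52% CACCC, 33.8% CCAAT, 7.59% TATAAA and 4.01% TATAAG. A match describes the letters and does not show that a factor bound there.

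The library totals ran between 32352405 and 41390196 counts, and 1 count was worth 0.0227 to 0.0304 CPM (counts scaled to a library of 1e+06) after scaling by trimmed means (TMM). The share of even numbers among counts of 1 to 20 was between 68.1% and 75.6%, so many counts appear to hold both mates of a read pair. Intervals on counts therefore use halved counts, and they cover counting error only. Markers of the labelled cell type were present in both late groups: 11 genes of pigment epithelium (among them Rpe65 and Tyr) summed to 6255, 3923 and 3202 CPM in D32 libraries and 43467 and 39207 CPM in P-RPE libraries. Replicate libraries differed by more than counting noise, for which a chi-square of 1 per gene is the norm: on halved counts it was 1.78 to 2.4 between MEF libraries and 5.62 to 51.93 in the other groups.

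Adult globin RNA was present in every D32 and every P-RPE library and was close to absent in MEF, D7 and D18. Hbb-bs, the most abundant of the 8, was read at 56.6, 61.6 and 111 CPM in D32 libraries and at 482 and 834 CPM in P-RPE libraries. In the 9 libraries of the earlier groups its only reads were 2 counts in MEF replicate 3, or 0.0567 CPM. The groups did not overlap: each D32 library was far above all fibroblast and intermediate libraries and below both P-RPE libraries. Set against the 3 counts that a group at 0 can hide, Hbb-bs was at least 2761-fold higher at D32 than at D18. Against MEF the ratio was 3979, with a 95% counting interval of 714 to 157211. In bulk RNA, fewer cells of a type and less RNA per cell cannot be told apart.

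Hba-a1, the most abundant alpha-type gene, had 31.5, 42.1 and 64.9 CPM in D32 libraries, against 353 and 683 CPM in P-RPE libraries. It had 0 counts in all 9 libraries of MEF, D7 and D18, which places D32 at least 1664-fold above D18. The sister genes followed at lower levels. Hbb-bt had 7.36, 9.28 and 15.1 CPM in D32 libraries and 75.2 and 140 CPM in P-RPE libraries. Hba-a2 had 2.55, 6.17 and 4.88 CPM in D32 libraries and 35.3 and 64.5 CPM in P-RPE libraries. Neither had a count in MEF, D7 or D18. The lower bounds on their ratio of D32 to D18 were 382-fold for Hbb-bt and 164-fold for Hba-a2.

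**Figure D1:**
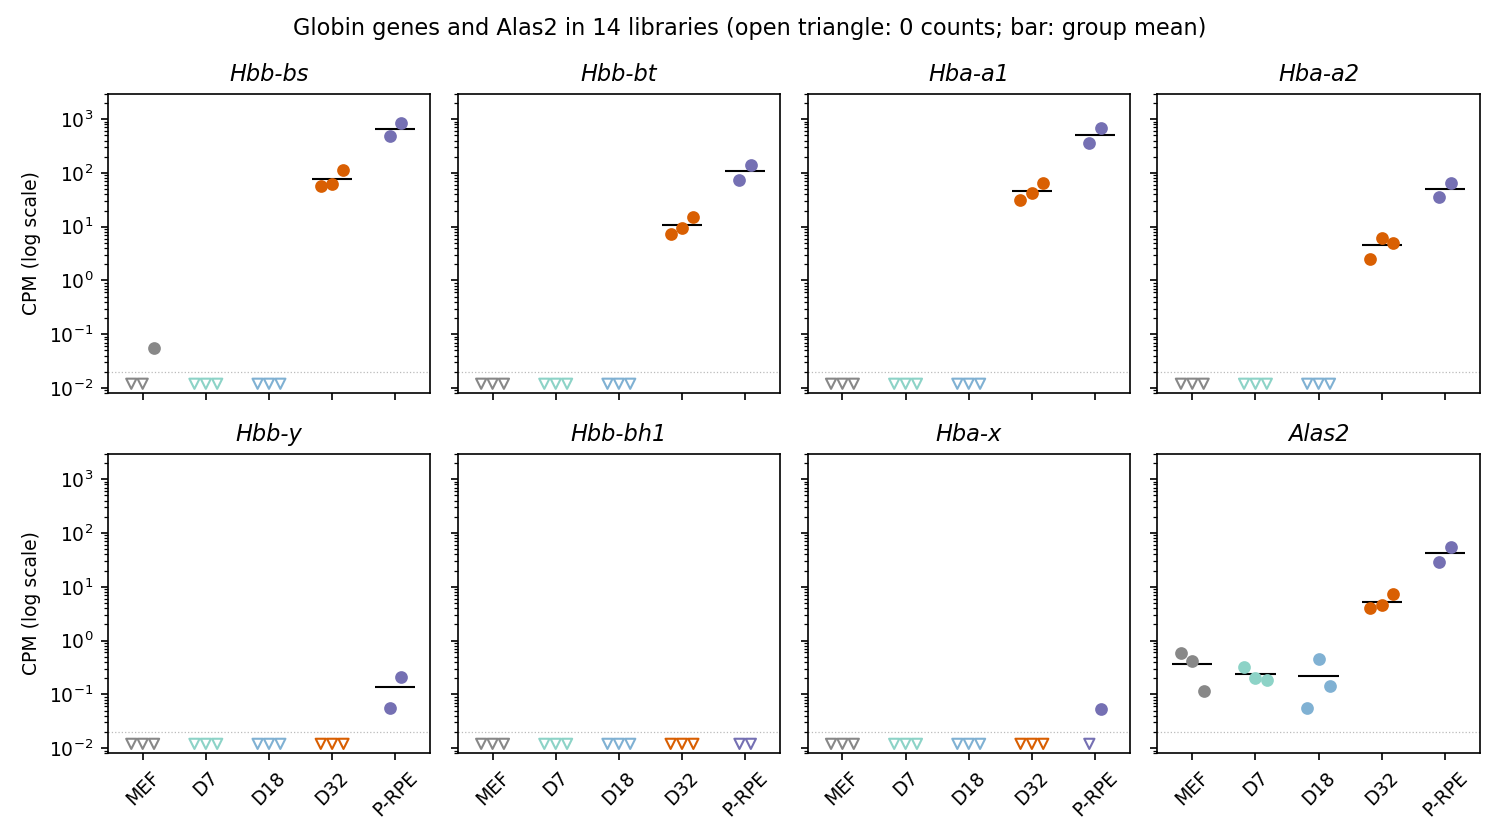
Level of each gene in CPM (log scale) in every library, by group from MEF to P-RPE. Points are libraries, open triangles below the dotted line are libraries with 0 counts, and bars are group means where every library had counts. Adult globins and Alas2 lie at one level at D32 and a higher one in P-RPE, and the embryonic genes have at most 8 counts in any library.

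Together the 4 adult genes took 98, 119 and 196 CPM in D32 libraries and 945 and 1722 CPM in P-RPE libraries. The group means were 138 ± 51.7 CPM at D32 (SD, n = 3) and 1334 ± 550 CPM in P-RPE (SD, n = 2). The D32 mean was 10.3% of the P-RPE mean, a log2 difference of -3.27. Single D32 libraries ranged from 0.0569 to 0.208 of a single P-RPE library. Even at the highest level, adult globins made up 0.155% of a P-RPE library's counts, and 0.0105% to 0.0213% of the D32 libraries.

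The transcripts of sister genes are too alike for their levels to be told apart with confidence. Between Hba-a1 and Hba-a2 the GENCODE transcripts differ at 1 of 538 aligned bases, and 65.7% of the 150-base stretches of Hba-a2 occur unchanged in Hba-a1. Hbb-bs and Hbb-bt are 92.7% identical, and 58.7% of the stretches of Hbb-bs occur in Hbb-bt. How reads with more than 1 match were counted is not given in the sources used here, so single sister genes are uncertain and sums of a pair are firmer. No adult gene shared a 150-base stretch with an embryonic gene, so reads of that length could not be passed between the stages.

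Per kilobase of annotated exon, which allows genes to be compared, the order was the same in both groups. Hbb-bs was at 99.7 ± 39.4 CPM per kb at D32 (SD, n = 3) and 857 ± 325 in P-RPE (SD, n = 2). Hba-a1 stood at 56.8 and 638 CPM per kb at D32 and in P-RPE, Hbb-bt at 15.1 and 153, Hba-a2 at 6.8 and 74.8, and Alas2 at 2.22 and 17.5. The neighbours Hbb-bs and Hba-a1 in this order lie within their spread over libraries in P-RPE, where the SD of Hba-a1 was 288 CPM per kb.

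The order of the 4 adult globins in the counts was the same in all 5 libraries, Hbb-bs, Hba-a1, Hbb-bt and Hba-a2, with some spread in their shares. Hbb-bs made up 87.8% ± 0.819 of the adult beta counts at D32 (SD, n = 3) and 86% ± 0.636 in P-RPE (SD, n = 2). Hba-a1 made up 90.9% ± 3.21 of the adult alpha counts at D32 and 91.2% ± 0.354 in P-RPE. These shares depend on how shared reads were assigned. The share of beta genes in all adult globin counts could depend on it too, if reads with several matches were dropped. It was 65.3%, 59.5% and 64.5% in D32 libraries and 58.9% and 56.6% in P-RPE libraries. Every D32 library was above both P-RPE libraries in this share, and the exact 95% binomial intervals of D32 replicates 1 and 3 lay above those of both P-RPE libraries. Replicate 2 of D32, with an exact 95% binomial interval of 57.4% to 61.5%, overlapped P-RPE replicate 1, with 58.2% to 59.7%.

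**Figure D2:**
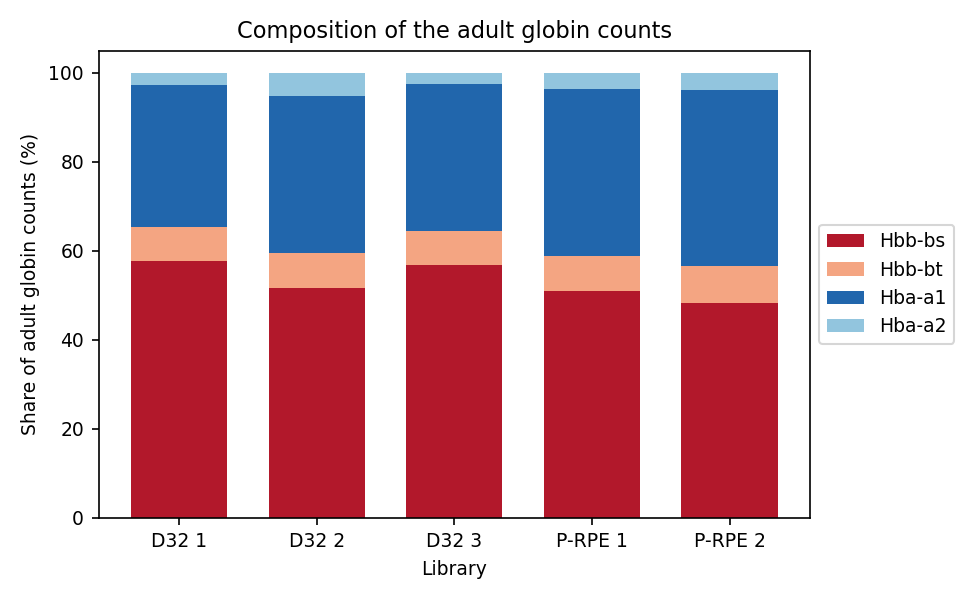
Share of each adult globin gene in the summed adult globin counts (percent) of the D32 and P-RPE libraries, 1 bar per library. Beta genes (red shades) take 59.5% to 65.3% of the counts in D32 libraries and 56.6% to 58.9% in P-RPE libraries, and Hbb-bs is the largest share in each.

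Embryonic globins were at or near 0 throughout, although the labels give an embryonic tissue for all libraries. Hbb-bh1 had 0 counts in all 14 libraries. Hbb-y was read only in P-RPE, with 2 counts in replicate 1 and 8 in replicate 2, or 0.0559 and 0.214 CPM. Hba-x was read only in P-RPE replicate 2, with 2 counts. All 3 were at 0 in D32, so that none of 3918, 4518 and 7524 globin counts in the D32 libraries was embryonic. As a limit of 3 deposited counts, a count of 0 allows embryonic shares of up to 0.0766%, 0.0664% and 0.0399% there. The upper ends of the exact 95% intervals on halved counts were higher, at 0.188%, 0.163% and 0.098%.

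In P-RPE, 2 of 33796 globin counts were embryonic in replicate 1, a share of 0.00592% with an exact 95% interval of 0.00015% to 0.033%. In replicate 2 the share was 10 of 64308 counts, 0.0156%, with an interval of 0.00505% to 0.0363%. The D32 limits lie above these shares, so a P-RPE-like embryonic share would not have been detectable at the D32 depth. In both groups the globin RNA came almost wholly from the adult genes. As a level, Hbb-y had a P-RPE mean of 0.135 CPM, 5.23 times the 0.0258 CPM that 3 counts over the D32 libraries come to. That ratio is no firm bound: it uses counts not halved and takes the 10 P-RPE counts of Hbb-y as exact. It rests on P-RPE replicate 2, since the 2 counts of replicate 1 alone are below the limit of 3 and give no fold.

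Alas2, the haem enzyme of red cells, moved with the globins but had a low level from the start. It had 0.578, 0.415 and 0.113 CPM in MEF, 0.326, 0.204 and 0.188 CPM in D7 and 0.0562, 0.453 and 0.142 CPM in D18. These 3 groups overlapped, and neighbours in their order did not differ beyond their spread. Alas2 then had 4.05, 4.62 and 7.3 CPM in D32 libraries and 28.6 and 55.6 CPM in P-RPE libraries, with no overlap. The D32 mean was 24.5 times the D18 mean, with single pairs of libraries between 8.94 and 130 times. P-RPE was 114 times MEF.

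Measured against the globins, Alas2 had a somewhat larger share at D32 than in P-RPE. It made up 3.76% ± 0.192 of the counts of Alas2 and the 4 adult globins at D32 (SD, n = 3) and 3.04% ± 0.134 in P-RPE (SD, n = 2). The D32 libraries ran from 3.59% to 3.97% and the P-RPE libraries from 2.94% to 3.13%, without overlap. Their exact 95% binomial intervals did overlap, so each library's share is within counting error of the other group. The intervals were 3.17% to 4.91%, 2.98% to 4.55% and 3.03% to 4.22% in D32 libraries. In P-RPE libraries they were 2.69% to 3.2% and 2.94% to 3.32%. No such proportion held in MEF, D7 and D18, with 38, 29 and 24 Alas2 counts beside 2, 0 and 0 adult globin counts. At D32 it reached 12.6% of its P-RPE level, beside 11.6% for Hbb-bs, 9.83% for Hbb-bt, 9.09% for Hba-a2 and 8.9% for Hba-a1. The 5 genes thus stood at 8.9% to 12.6% of the P-RPE level.

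Among replicate libraries Hbb-bs, Hbb-bt, Hba-a1 and Alas2 were high and low together, and Hba-a2 differed only in being highest in D32 replicate 2. D32 replicate 3 had 2 times the adult globin level of D32 replicate 1 and 1.8 times its Alas2. P-RPE replicate 2 had 1.82 times the adult globins and 1.95 times the Alas2 of P-RPE replicate 1. Markers of rod photoreceptors, summed over 10 genes such as Gnat1, were high in the same libraries: 7.26, 34.7 and 57.3 CPM in D32 libraries and 1005 and 2828 CPM in P-RPE libraries. Markers of pigment epithelium ran the other way at D32, with D32 replicate 3 at 0.512 times replicate 1, and those of macrophages were at 0.515 times. Endothelial markers were at 641, 729 and 505 CPM in D32 libraries and 1893 and 2324 CPM in P-RPE libraries. The part of these other cell types in the globin values was not tested.

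**Figure D3:**
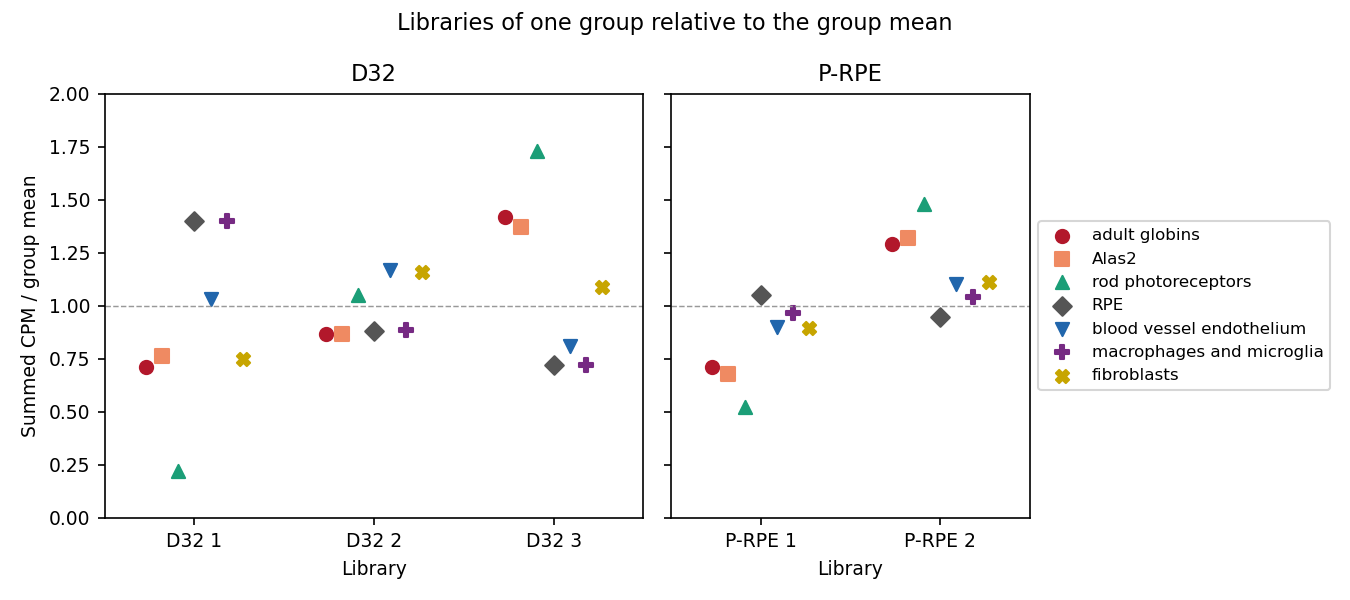
Summed CPM of the adult globins, Alas2 and 5 marker lists in each D32 library (left) and each P-RPE library (right), divided by the mean of its group. Symbols at 1 lie at the group mean. Adult globins and Alas2 are lowest in D32 replicate 1 and highest in D32 replicate 3, as are the rod markers, whereas pigment epithelium and macrophage markers are highest in D32 replicate 1.

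The wider red cell programme was described with 32 genes of the red cell membrane, erythroid transcription factors and other red cell genes. Of these, 30 were in the table and 22 passed the filter. Called genes of this list need not mark red cells, since many were read where adult globins were close to absent. The other red cell genes summed to 81.5 CPM in MEF, 232 CPM at D18 and 232 CPM at D32. The membrane genes summed to 43.1 CPM at D18 and 37.2 CPM at D32, and the transcription factors to 14 and 28.5 CPM. The adjusted p-values below come from the quasi-likelihood test of edgeR, corrected by Benjamini and Hochberg's method over all 20562 genes tested. From D18 to D32, 13 of the 22 rose, 5 fell and 4 did not pass the test. That is 59.1% higher, where 29.9% of all tested genes rose and 26.1% fell. The median log2 change of the list was 1.11, against 0.07 over all genes.

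Ermap, an erythroid membrane protein of the Scianna blood group, averaged 19 ± 8.06 CPM at D32 and 0.722 ± 0.115 CPM at D18 (SD, n = 3 each), a log2 change of 4.71 (SE 0.31, adjusted p = 1.36e-08). Slc4a1, the anion exchanger of the red cell membrane (band 3), had 10, 2 and 6 counts in D32 libraries and none at D18 (adjusted p = 0.0157). That is 5.52-fold above a floor of 3 counts at D18, a value that takes the few D32 counts as exact. Tal1, a transcription factor of blood and vessel cells, rose with 30, 23 and 20 counts in D32 libraries and 2 counts in all of D18 (adjusted p = 0.000868). The ratio was 34, with a 95% counting interval of 5.64 to 1360. Epor, the erythropoietin receptor, rose by 2 on the log2 scale, with means of 1.79 CPM at D32 and 0.444 CPM at D18 (adjusted p = 0.0011). Rhag, the Rh-associated glycoprotein, named after its values were seen, had 1.86 ± 0.904 CPM at D32 and 0.0833 ± 0.102 CPM at D18 (adjusted p = 0.000337).

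Some of the list went down. Ank1, the ankyrin that ties the red cell skeleton to band 3, fell by 3.57 on the log2 scale, to 1.02 CPM at D32 against 12.2 CPM at D18 (adjusted p = 1.11e-06). Klf1, the factor that drives adult beta globin, averaged 0.355 CPM at D32 and 0.203 CPM at D18 and did not pass the test (adjusted p = 0.453). Several defining red cell genes other than globins were near 0 in all 14 libraries: Gata1 had at most 4 counts in a library, Gfi1b at most 2, Epb42 at most 4 and Klf1 at most 26, and Icam4 had none.

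Against MEF, D32 had 14 of the 22 red cell genes higher and 3 lower, where 35.6% of all tested genes were higher and 24.6% lower. The list's median log2 change was 1.88, against 0.26 over all genes. Ermap had the largest log2 change of the list, at 19 CPM in D32 against 0.146 CPM in MEF, with a log2 change of 7.01 (adjusted p = 2.44e-09). P-RPE had 13 of the 22 higher than MEF and 4 lower, where 39.3% of all tested genes were higher and 31.4% lower. Ermap averaged 161 ± 31.5 CPM in P-RPE (SD, n = 2), a log2 change of 10.09 from MEF (adjusted p = 3.2e-11). Lmo2, a partner of Tal1, averaged 37 CPM in P-RPE and 1.48 CPM in MEF (adjusted p = 7.71e-09). The comparisons share libraries with each other, so their values are given side by side only.

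Between D32 and P-RPE the red cell list was split. At D32, 5 of the 22 genes were higher, 7 were lower and 10 did not pass, where 27.1% of all tested genes were higher and 26.8% lower, so the list's shares are near the background. Scaled by library totals alone, which puts the median of all genes at 0.25 and not 0.02 on the log2 scale, 6 of the list were higher and 4 lower at D32, as were 6979 and 4260 of all tested genes. Without P-RPE replicate 1 the split was 1 higher and 8 lower. Ermap reached 11.8% of its P-RPE level (log2 change -3.08, adjusted p = 2.54e-07). Tal1 was lower by a log2 change of -2.89 (adjusted p = 0.00159) and Lmo2 by -2.48 (adjusted p = 5.49e-06).

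Rhag ran the other way. It had 50, 54 and 111 counts in D32 libraries and 0 in both P-RPE libraries, at least 45.2-fold higher at D32 (adjusted p = 0.000197). Its D32 libraries keep the order of the globins, replicate 3 being the highest. Ermap did not, with 28.3, 14.4 and 14.2 CPM in D32 libraries and 183 and 139 CPM in P-RPE libraries. Nor did the list sums in D32 libraries: membrane genes had 47.8, 28.8 and 34.9 CPM and transcription factors 27.7, 33.1 and 24.7 CPM. The other red cell genes had 221, 252 and 223 CPM. Rhd, the Rh blood group protein, averaged 0.896 ± 0.0636 CPM at D32 and 0.109 ± 0.0354 CPM in P-RPE, a log2 change of 3 (adjusted p = 0.00659), which was not called without P-RPE replicate 1 (adjusted p = 0.0642). Slc4a1 had 14 and 46 counts in P-RPE. Its lower level at D32 (log2 change -2.38, adjusted p = 0.0425) was not called with DESeq2 (adjusted p = 0.131). Nor was it called by edgeR without P-RPE replicate 2 (adjusted p = 0.436), D32 replicate 2 (adjusted p = 0.108) or D32 replicate 3 (adjusted p = 0.0905), by library totals alone (adjusted p = 0.0646) or with no filter (adjusted p = 0.0555). Its log2 change was -1.33 without P-RPE replicate 2 and -2.98 without P-RPE replicate 1.

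**Figure D4:**
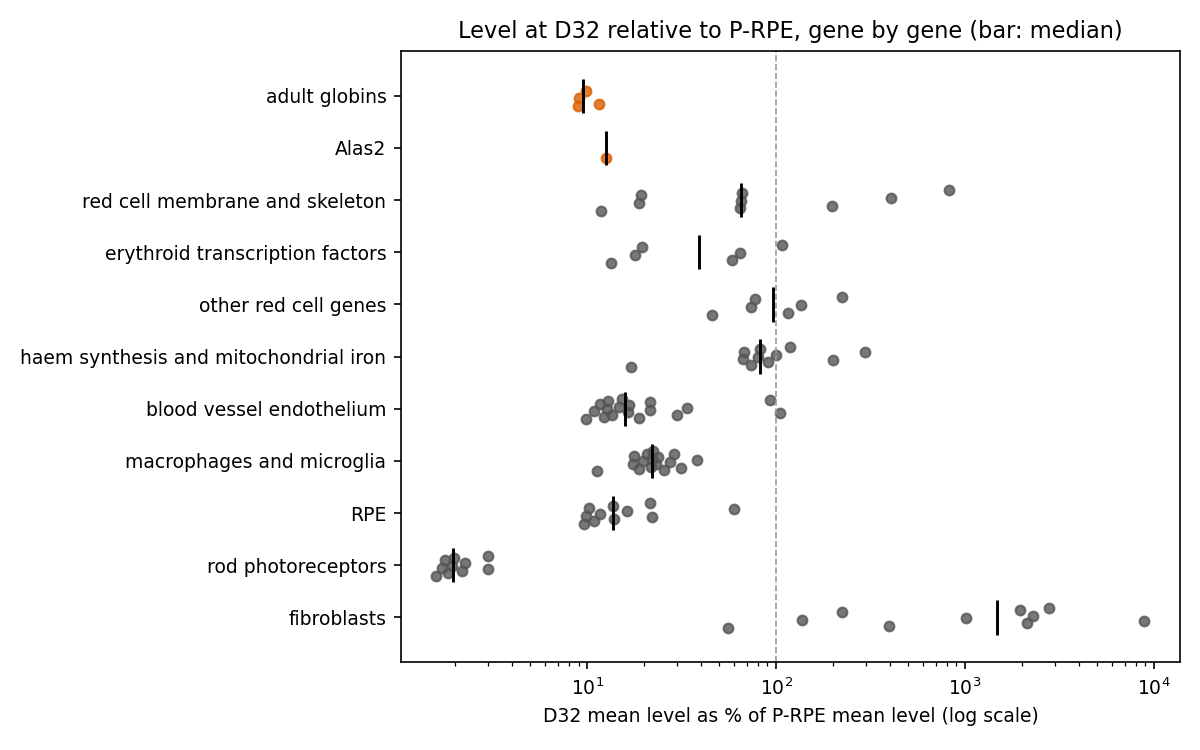
Mean level at D32 as a percent of the mean in P-RPE (log scale), 1 point per tested gene with counts in both groups, by gene list, and the list's median as a bar. Adult globins and Alas2 (orange) lie between 8.9% and 12.6%, near the medians of the pigment epithelium list (13.7%) and the endothelial list (15.8%), while rod markers lie near 1.94% and red cell lists spread on both sides of 100%. Rhag is not drawn, having 0 counts in P-RPE.

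Beside the globins, markers of several other cell types were lower at D32 than in P-RPE, where 26.8% of all tested genes were lower and 27.1% higher. All 16 macrophage markers and all 10 rod markers were lower at D32, with medians of 22.1% and 1.94% of the P-RPE level. Of 18 endothelial markers 16 were lower, with a median of 15.8%, and of 11 pigment epithelium markers 10 were lower, with a median of 13.7%. The median over the 4 adult globins was 9.46%, and over all tested genes with counts in both groups 98.7%. From D18 to D32, all 18 endothelial markers, 15 of 16 macrophage markers, 9 of 10 rod markers and 10 of 11 pigment epithelium markers rose, as did 29.9% of all tested genes. Rod markers had 4.44, 4.21 and 4.99 CPM in D18 libraries. Other lists ran the opposite way: 8 of 10 fibroblast markers and 5 of 8 astrocyte markers were higher at D32 than in P-RPE. Their medians were 1482% and 368% of the P-RPE level. All 8 astrocyte markers fell from D18 to D32, as did 26.1% of all tested genes. Macrophage markers were also read in the starting cells, and summed to 261 CPM in MEF, 47 CPM at D18 and 629 CPM at D32. Against MEF, 8 of 16 macrophage markers were higher at D32 and 0 lower, where 35.6% of all tested genes were higher and 24.6% lower. Other blood cells had their own patterns. Summed lymphocyte markers were at 9.26, 9.18 and 5.45 CPM in D32 libraries and 50.5 and 46 CPM in P-RPE libraries. Of these, Cd4 alone took 4.85, 5.33 and 3.34 CPM in D32 libraries and 45.1 and 38.9 CPM in P-RPE libraries. Among 7 lymphocyte markers tested, 1 was lower at D32 than in P-RPE (14.3%, against 26.8% of all tested genes) and 0 were higher. Platelet markers were at 9.98, 14.4 and 12.5 CPM in D32 libraries and 14.3 and 15.3 CPM in P-RPE libraries. Neutrophil markers were at 74.1, 75 and 71 CPM in D32 libraries and 16.5 and 18.5 CPM in P-RPE libraries, but 1 gene carried the D32 sums. Ltf alone took 63.9, 63.7 and 61.6 CPM in D32 libraries and 0.0559 and 0.161 CPM in P-RPE libraries. Among 7 neutrophil markers tested, 2 were higher and 2 lower at D32 than in P-RPE (28.6% each way), near the shares of all genes. Whether any of these cell types, or RNA carried with them, took part in the globin values was not tested.

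Other genes of haem synthesis were called in shares near those of all genes in the step to D32. From D18 to D32, 4 of 11 genes of haem synthesis and mitochondrial iron rose (36.4%, against 29.9% of all tested genes) and 3 fell (27.3%, against 26.1%). Between D32 and P-RPE 2 of the 11 were higher, where 27.1% of all tested genes were, and 5 were lower at D32 (45.5%, against 26.8%). Alad, the second enzyme of the pathway, averaged 37.2 ± 7.8 CPM at D32, against 15.3 ± 3.09 CPM at D18 (log2 change 1.28, adjusted p = 4.93e-06) and 218 ± 3.08 CPM in P-RPE (log2 change -2.55, adjusted p = 1.58e-08). Cpox, a later enzyme, was higher at D32 than in P-RPE, with 32.8 CPM at D32 and 11.1 CPM in P-RPE (log2 change 1.56, adjusted p = 5.64e-07). Fech, which puts iron into the ring, had 84 ± 2.82 CPM at D32 and 85.2 ± 6.71 CPM at D18 and did not pass the test (adjusted p = 0.868). Alas1, the form of the first enzyme used outside red cells and named after its values were seen, averaged 84.8 CPM at D32 and 54.2 CPM at D18 (log2 change 0.65, adjusted p = 0.00013).

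Of 9 genes that clear haem and haemoglobin, 5 rose from D18 to D32 (55.6%, against 29.9% of all tested genes) and 3 fell (33.3%, against 26.1%). Hmox1, the haem oxygenase that opens the haem ring, averaged 291 ± 73.4 CPM at D32 and 90.3 ± 14.1 CPM at D18 (log2 change 1.69, adjusted p = 5.63e-07). It was also higher at D32 than in P-RPE, where it averaged 36.1 ± 5.9 CPM (log2 change 3.01, adjusted p = 2.22e-08). Its level was not low before D18: it had 187, 197 and 193 CPM in MEF libraries and 137, 118 and 132 CPM in D7 libraries. Cd163, the macrophage receptor for haemoglobin bound to haptoglobin, averaged 0.588 CPM at D32 and 5.9 CPM in P-RPE (log2 change -3.32, adjusted p = 0.00028). Hp, haptoglobin itself, averaged 90.6 CPM at D32 and 2.12 CPM in P-RPE (log2 change 5.42, adjusted p = 4.04e-05). D18 libraries, in which adult globins were close to absent, already had 411, 485 and 85.3 CPM of Hp.

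Of 13 regulators of the switch from embryonic to adult globins, 9 were lower at D32 than in MEF (69.2%, against 24.6% of all tested genes) and none was higher (35.6% of all tested genes were). Lin28b and Igf2bp3 are RNA-binding proteins of fetal stages. Lin28b had 0 counts at D32 and 1.07 CPM in MEF, at least 41.3 times lower (adjusted p = 0.000493). It had 0 counts in D18 and P-RPE too, and 8, 4 and 0 counts in D7 libraries. Igf2bp3 averaged 3.14 CPM at D32 and 56.2 CPM in MEF (log2 change -4.16, adjusted p = 1.23e-08). It was already low at D18, with 0.927, 1.49 and 1.51 CPM. From D18 to D32, 4 of the 13 rose and 4 fell, 30.8% each way and near the shares of all genes. Sox6, a repressor of embryonic globins, fell to 15.3 ± 2.24 CPM at D32, against 99.6 ± 9.85 CPM at D18 (log2 change -2.7, adjusted p = 2.53e-09). Bcl11a, which silences fetal globin in humans, averaged 0.711 CPM at D32 and 0.154 CPM at D18 (log2 change 2.17, adjusted p = 0.00632). Without D18 replicate 2 its log2 change was 3.24. These factors also act outside red cells.

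Of 4 globins outside the clusters, 1 rose from D18 to D32 (25%, against 29.9% of all tested genes) and 2 fell (50%, against 26.1%). Cygb, cytoglobin, averaged 44.7 ± 9.41 CPM at D32, against 17.8 ± 10.8 CPM at D18 (log2 change 1.33, adjusted p = 0.00999) and 198 ± 6.49 CPM in P-RPE (log2 change -2.14, adjusted p = 0.000712). Adgb, androglobin, fell by 3.04 on the log2 scale from D18 to D32 (adjusted p = 1.03e-06), and Mb, myoglobin, fell by 3.18 (adjusted p = 0.0019), or by 2.29 without D18 replicate 2. Of the other globins within the clusters, Hbq1a had at most 4 counts in any library, Hbq1b at most 12 and Hbb-bh2 none, so that none of them passed the filter.

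The genes most like the adult globin sum over the 14 libraries were led by genes of pigment cells. The likeness was Pearson's r of log2(CPM + 0.5) over 16712 candidate genes, and Mlana led with 0.999, followed by Tyrp1 and Tspan10 with 0.997 and Tyr and Slc4a5 with 0.996. Mlana, a melanosome protein, had 26.7 CPM at D32 and 123 CPM in P-RPE. The order among them is not firm, since 260 candidates had r over 0.95, and 6 of the 10 most alike were kept with a pseudocount of 2 and none with Spearman's correlation. Among the 10 genes most like Alas2 were Rbp3 (0.991) and Gimap4 and Ccm2l (0.989), with 330 candidates over 0.95 and none of the 10 most alike kept with Spearman's correlation. Rbp3 is a photoreceptor gene, and Ccm2l is expressed in vessels.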

How the data were processed

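Per the labels, total RNA was extracted with TRIzol and RNeasy columns, made into libraries with a NEBNext Ultra RNA kit and sequenced from both ends for 150 bases on a NovaSeq. The authors deposited whole-number counts per gene symbol. The processing notes of the submitters list edgeR 4.0.16, limma 3.58.1, STAR 2.7.11a, Subread and featureCounts, and the builds mm10, GRCm38 and GRCh38. Their roles, the strand setting and the treatment of reads with several matches are not given in the sources used here. Of 55291 symbols, 53292 matched GENCODE vM21.

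Groups came from sample titles. Counts were scaled by TMM and tested with edgeR 4.0.16 in R 4.3.3 (filterByExpr, 20562 genes; 1 quasi-likelihood model of all 14 libraries; adjusted p under 0.05). A fold against a group at 0 uses a floor of 3 counts over the group. These counts are not halved, and the other group's level is taken as exact. The test was tried on simulated data. Replicate numbers were checked for pairing, which they did not show. The members and lists were chosen with earlier results of these data known. Named genes are the members, per list the 2 called genes that rose most, the 2 that fell most and the uncalled gene of highest level, and the 10 genes most like the members. The red cell genes at or near 0 and those said to be named after their values were seen are outside this rule. A human table, with 10 columns of other samples, was not used here, and the listed genes Ahsp and Tmem56 were not analysed here. Some genes that the rule names are not reported here.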

Additional observations from a re-analysis of the deposited data

How the results depend on the processing

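The values were recomputed with DESeq2 1.42.0, with a model of only the 2 groups, with each library left out, with the replicate number as a block, without TMM (by RLE or by totals), and with the filter dropped or set to a mean of 5 CPM. Of the alternative values for the summed globin levels and the counts of calls, 116 kept within 1.5 times the main count or 1 SD and 5 did not. For a summed level with 1 library left out this says little, since a mean of 2 or 3 libraries can hardly move by 1 SD that way. The summed P-RPE level was 1740 CPM without P-RPE replicate 1 and 953 CPM without P-RPE replicate 2, against 1334 CPM with both. The 5 values outside the limits all came with the 5 CPM filter, which leaves fewer genes to test. Under it, 10 red cell genes were called for D32 vs D18 (18 in the main model), 11 for D32 vs MEF (17), 6 for D32 vs P-RPE (12) and 11 for P-RPE vs MEF (17), and 9578 of all genes for P-RPE vs MEF (14528). Leaving out 1 library gave 15 to 16, 16 to 18, 9 to 11 and 16 to 17 red cell calls for these comparisons. The log2 difference of the summed adult globins, D32 minus P-RPE, was between -3.64 and -2.78 without 1 library, and -3.34 and -3.04 with RLE size factors and library totals. All 35 alternative values of single adult globins and Alas2 kept the direction. The log2 change of Fech in D32 vs D18, -0.02 in the main model, turned to 0.07 with library totals alone and ran between -0.11 and 0.03 without 1 library, passing no test.

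Replicate numbers did not pair the samples: deviations of same-numbered libraries correlated between -0.023 and 0.187. With the number as a replicate block, red cell calls were 17, 17, 10 and 17 in the order above. Slc4a1 in D32 vs P-RPE was not called with it (adjusted p = 0.147). The 2 P-RPE libraries limit every comparison with that tissue, and levels of a few counts, such as those of the embryonic globins, are at the limit of the depth.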
